A study of Mus musculus with 36 samples.

Results

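Leukocyte-like barcodes are droplet barcodes of the small-intestinal libraries that the authors left out of their cell annotation and that carry RNA of Ptprc, the gene of the pan-leukocyte surface phosphatase CD45. A barcode was taken when it was absent from the authors' annotation, held 500 or more unique molecular identifiers (UMI, 1 per counted RNA molecule), had under 15% of its UMI in mitochondrial genes and held 1 or more UMI of Ptprc. This gave 1387 of 8920 barcodes, 18 of 1209 in set 1 and 1369 of 7711 in set 2. The annotated cells beside them number 1144 in set 1 and 1470 in set 2, and the authors name them all as epithelial types. Unannotated barcodes within the same limits but with no Ptprc UMI number 11 in set 1 and 370 in set 2.

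The 2 libraries, set 1 and set 2, were made with the 10x Genomics Chromium method from cells of the small intestine of wild-type C57BL6/2J mice aged 12 months. They form 1 group with no treatment, and the labels do not say whether the sets come from separate animals. The labels mention flow sorting of epithelial populations without saying whether it touched these libraries. The other samples are small RNA libraries of sorted epithelial populations and are not used here. No comparison between conditions is possible, so values of the sets are given side by side, and intervals cover counting error only.

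The gut epithelium holds resident lymphocytes, the intraepithelial lymphocytes, which lie between epithelial cells and carry granules with cytotoxic proteases. In mice many of them carry CD8 as a pair of alpha chains; these natural cells are commonly distinguished from induced ones, which carry CD8 alpha with beta or CD4 and resemble T cells of lymph nodes. B cells, plasma cells, macrophages, dendritic cells and mast cells belong mostly to the lamina propria below.

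The sets stood far apart in depth. Every set 1 barcode held at least 8339 UMI, whereas set 2 members ran from 567 to 26809 UMI. Median UMI per barcode were 13238.5 in set 1 members and 2851 in set 2 members, against 16547 and 24850.5 in annotated cells of set 1 and set 2. Members summed to 233190 and 4246788 UMI in set 1 and set 2, annotated cells to 23947568 and 47974261. Of the set 2 members, 19 reached the lowest total of set 1, and 12 of these 19 (63.2%) held a UMI of a CD3 gene. The libraries shared 0 barcodes. No doublet caller was run.

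The values used for selection describe the members and are no finding. Ptprc stood at 167 and 1041 CPM in set 1 and set 2 members, against 2.09 and 2.77 CPM in annotated cells. In set 2, the share of barcodes with a UMI of Cd3d, Cd3e or Cd3g, the signal chains of the T-cell receptor, was 37.3% of 370 barcodes with no Ptprc UMI and 78.4% of 283 with 1. It was 89.1% of 329 with 2 and 96.2% of 757 with 3 or more. Median depth rose along the same steps, at 1357, 2590, 2732 and 2982 UMI, and its part in the shares was not tested. In set 1 a CD3 gene was found in 6 of 11 barcodes with no Ptprc UMI and 2 of 7 with 1. It was found in 1 of 3 with 2 and 5 of 8 with 3 or more, with no steady rise. At the lower depth limit, the 17 set 2 members under 1000 UMI held a CD3 gene in 64.7%, and just outside the mitochondrial limit 45 of 54 Ptprc-holding barcodes with 15 to 20% mitochondrial UMI did (83.3%).

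Summed over barcodes, genes of T cells and cytotoxic granules stood higher in members than in annotated cells in both libraries. Cd3g stood at 3797 CPM (UMI counts of the gene scaled to the summed UMI; 95% exact Poisson interval 3738 to 3856) in set 2 members, against 7.90 CPM (7.12 to 8.74) in annotated cells. In set 1 it stood at 433 CPM in members and 4.93 CPM in annotated cells. Cd3e was at 636 and 1.67 CPM in set 2 members and annotated cells, and Cd8a, the alpha chain of the CD8 coreceptor, at 1453 and 4.02 CPM. Gzma, a serine protease of cytotoxic granules, was at 11916 CPM in set 2 members and 32.9 CPM in annotated cells, 362 times as high. In set 1 members it was 96.0 times as high as in annotated cells. Most of that sum came from few barcodes, as single barcodes held 234, 215 and 111 of the 569 Gzma UMI. Summed levels of Gzma and Cd3g were thus higher in members of both sets, with the smaller ratios in set 1.

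Cd3g had a UMI in 90.4% of set 2 members at a median of 2851 UMI, against 4.30% of annotated enterocytes, absorptive cells that should lack the gene, at a median of 24697.5 UMI. For Cd8a the shares were 78.2% of members and 5.94% of enterocytes. Gzma had a UMI in 64.0% of set 2 members and 12.5% of enterocytes. After each barcode was thinned to 500 UMI, Cd3g was found in 75.9% of set 2 members and 0.340% of annotated cells, and Gzma in 59.0% and 0.884%. In set 1 the same genes were found in fewer members: Cd3g in 6 of 18 and Gzma in 8 of 18, 4 of these 8 with 1 Gzma UMI.

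**Figure D1:**
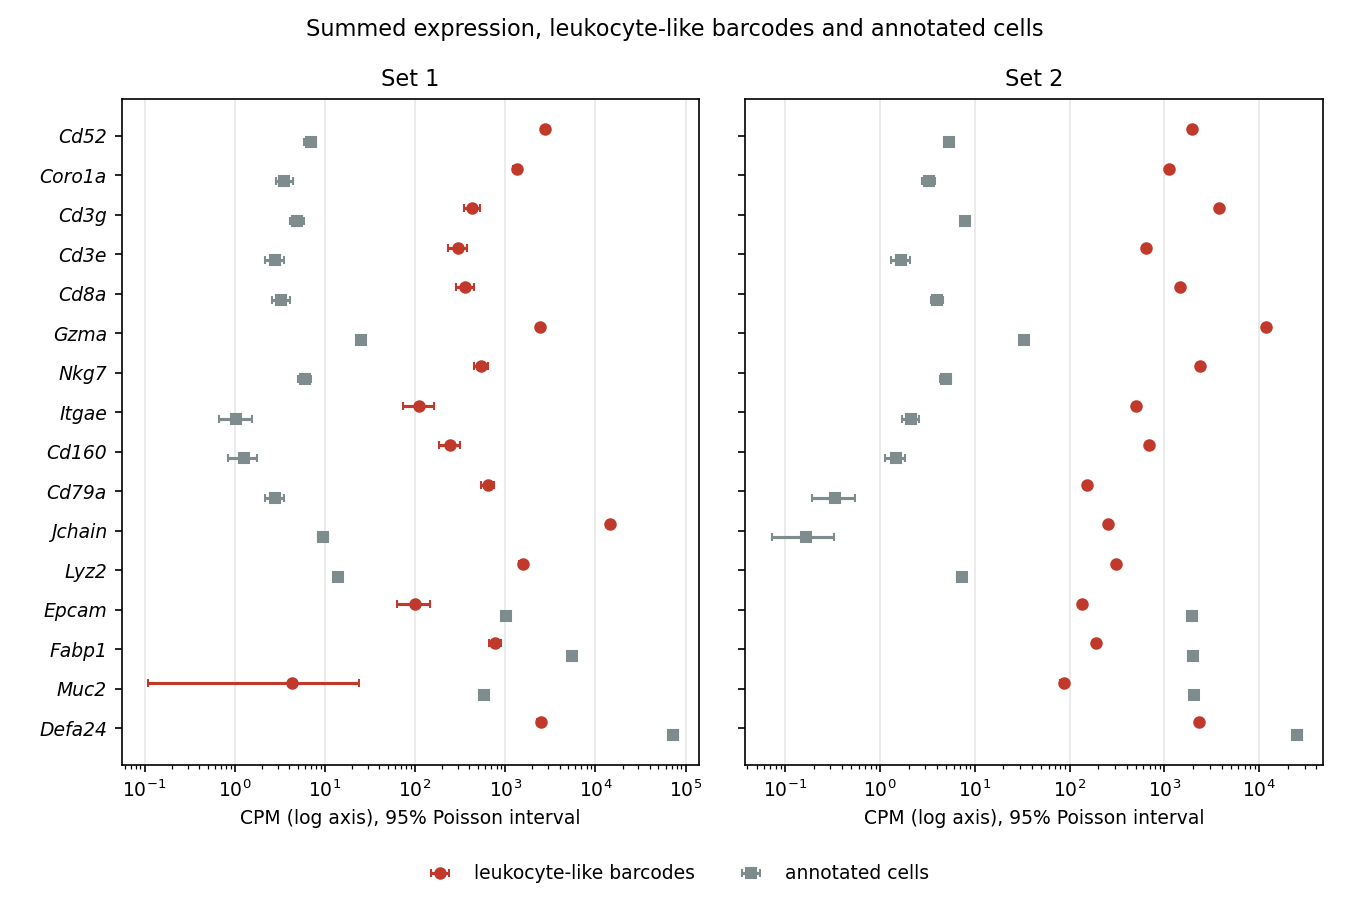
Summed expression in CPM on a log axis for 16 genes, in leukocyte-like barcodes (circles, above) and annotated cells (squares, below) of set 1 and set 2, with 95% Poisson intervals. Leukocyte genes from Cd52 to Lyz2 lie to the right in leukocyte-like barcodes, and Epcam, Fabp1, Muc2 and Defa24 lie to the left of annotated cells in both sets. Jchain was held by 8 and 7 leukocyte-like barcodes of set 1 and set 2, and Lyz2 by 1 and 10.

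Across the 11484 genes with at least 20 UMI in each set, 604 (5.26%) were at least 4 times as high in members as in annotated cells in each set, and 313 (2.73%) at least 4 times as low. In set 2 alone, 14.7% of the genes tested were higher and 12.9% lower, and in set 1 alone 8.35% and 2.96%. Without the members over 10000 UMI, 245 genes were higher and 100 lower in each set. This left out 13 of the 18 set 1 members and 16 of the 1369 set 2 members. The median log2 ratio over all genes tested in a set was 0 in set 1 and 0.19 in set 2. Of 15 measured genes common to leukocytes, all 15 were higher by this measure, with median log2 ratios of 6.92 in set 1 and 8.41 in set 2. They include Cd52, a surface glycoprotein of lymphocytes, with 2749 and 1944 CPM in set 1 and set 2 members against 6.93 and 5.40 CPM in annotated cells. Coro1a, an actin regulator of leukocytes, stood at 1355 and 1116 CPM in members and 3.55 and 3.27 CPM in annotated cells. The members were chosen by Ptprc, so these differences describe them and are not a test. The minimum of 20 UMI sums members and annotated cells, so a gene could pass through the members alone, and counts of leukocyte genes called higher among those that passed support nothing further.

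Of the 10 T-cell genes that passed the minimum, 9 were higher in each set. The exception was Bcl11b, a transcription factor of the T lineage, at 162 CPM in set 2 members and 42.9 CPM in annotated cells, which had a UMI in 56.5% of annotated cells and 32.4% of members. All 12 measured genes of the intraepithelial list that passed were higher. The list was not particular to T-cell-like barcodes. In set 2 it summed to 10305.5 CPM in the Siglech cluster described below, where the T-cell list stood at 50.1 CPM. Among them, Itgae, the integrin chain that binds E-cadherin, stood at 498 and 2.11 CPM in set 2 members and annotated cells. Cd160, an Ig-family receptor of lymphocytes, stood at 692 and 1.46 CPM. Ccr9, the receptor for the gut chemokine CCL25, stood at 235 and 1.17 CPM in set 2 and at 377 and 0.877 CPM in set 1. All 7 cytotoxic genes that passed were higher.

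The 15 genes with the largest ratio in the set where it was smaller were led by Jchain, the joining chain of secreted antibodies. Jchain stood at 14597 and 254 CPM in set 1 and set 2 members and at 9.52 and 0.167 CPM in annotated cells, with log2 ratios of 10.58 and 10.57. After it came Serpinb6b, AI662270, Hcls1, Cd52, Cd8b1, Klhl6, Mzb1, Bin2, Coro1a, Mndal, Rhoh, Ptpn7, Tnfrsf13b and Lsp1, whose smaller log2 ratios ran from 8.54 to 8.24. Hcls1 and Rhoh act in antigen-receptor signalling of lymphocytes, and Mzb1 is a chaperone of antibody-secreting cells. In set 1 all 56 Cd8b1 UMI came from the 3 barcodes of the Siglech cluster described below.

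Most lists of epithelial genes were low in members, those of stem and tuft cells less uniformly. All 12 genes of the epithelial list, all 11 enterocyte genes, all 8 measured Paneth genes and 7 of 8 goblet genes were at least 4 times as low in each set. Over all genes tested the share was 2.73%. The authors named the annotated cells as epithelial types, and a gene could pass the minimum through them alone. These counts therefore describe the members and are no test. Of enteroendocrine genes 4 of 8 were lower in each set, of stem and progenitor genes 1 of 6, and of tuft genes 0 of 10. In set 2 alone 7 of 8 enteroendocrine, 5 of 6 stem and progenitor and 5 of 10 tuft genes were lower. Set 1 members summed to 233190 UMI, so genes of low level could hardly be called lower there. Epcam, an adhesion molecule of epithelia, stood at 98.6 and 135 CPM in set 1 and set 2 members, against 1009 and 1963 CPM in annotated cells. Muc2, the main intestinal mucin, stood at 87.1 CPM in set 2 members and 2037 CPM in annotated cells, 23.4 times as high in annotated cells. Among the 15 genes with the lowest ratio were Fcgbp, Gip, Muc2, Agr2, Dmbt1, Clps, Cck, Mgam, Guca2a, Ccl6, Reg3g, Sct and Reg3b, products of goblet, enteroendocrine, absorptive and Paneth cells.

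Epithelial RNA was nevertheless present in members. Over 39 epithelial, enterocyte, Paneth and goblet genes, the median share of a barcode's UMI was 0.526% and 0.878% in set 1 and set 2 members, against 3.97% and 5.35% in annotated cells. The share exceeded 5% in 0 members of set 1 and 4 of set 2. Epcam had a UMI in 27.5% of set 2 members and Fabp1, a fatty-acid carrier of enterocytes, in 41.4%. Over the 6 T-cell-like clusters below, shares of Fabp1 were alike (36.4% to 43.5%). Those of Epcam ran from 21.9% in cluster 4 to 36.9% in cluster 1. Whether free RNA or doublets gave these UMI was not tested.

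Clustering of the members on their own gave 9 clusters, and their sizes by set differed widely. Clusters 1 to 6 were named T-cell-like for at least 5 T-cell genes in at least 50% of barcodes. They held 1244 of the 1369 set 2 members (90.9%, 95% exact binomial interval 89.2 to 92.3) and 0 of 18 in set 1 (up to 18.5% by the exact interval). The 0 counts barcodes in named clusters and sets no limit on T cells in set 1. There, 6 of the 10 barcodes in the unnamed cluster 8 held a CD3 gene. Cluster 7, B-cell-like, held 87 set 2 members (6.36%) and 5 of set 1. Cluster 8, with genes of several classes, held 24 set 2 members (1.75%) and 10 of set 1, and cluster 9, led by Siglech, held 14 (1.02%) and 3. Cluster 8 had T-cell genes in most barcodes but none among its 10 highest folds over annotated cells, and it and cluster 9 are unnamed. Counted per barcode instead, 1243 set 2 members (90.8%) held a CD3 gene, 89 (6.50%) held Cd79a of B cells, 6 held both and 43 neither. In set 1, 8 of 18 held a CD3 gene, 8 held Cd79a, 1 held both and 3 neither.

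**Figure D2:**
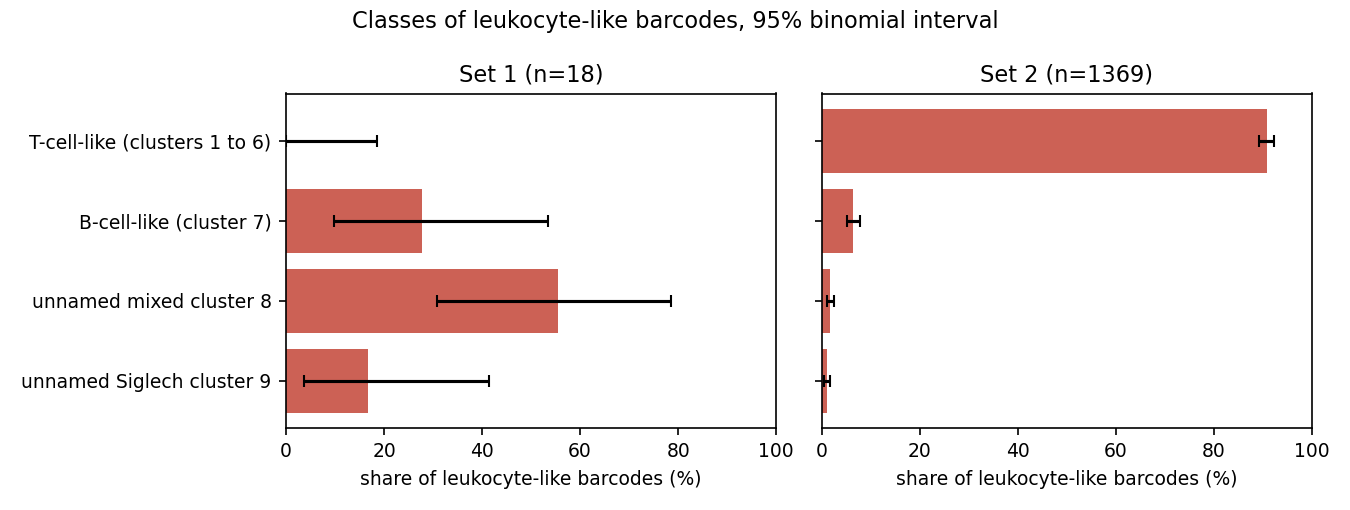
Share of leukocyte-like barcodes in each class, in set 1 (18 barcodes) and set 2 (1369 barcodes), with exact 95% binomial intervals. Set 2 is mostly T-cell-like (90.9%), while set 1 has 10 of its 18 barcodes in the mixed cluster 8, 6 of these 10 with a CD3 gene.

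T-cell receptor constant genes are not among the genes used here, so receptor type could not be read. Cluster 1, 363 barcodes, held Cd8a in 98.9%, Gzma in 98.9% and Gzmb, a second granule protease, in 87.3%. It held Cd8b1, the CD8 beta chain, in 0.551%, Cd5 in 0 and Cd4 in 0 of 363. The exact interval allows up to 1.01% of barcodes with a UMI, which at a median of 2926 UMI sets no limit on barcodes that express the gene. Its leading genes over the other members were Spp1, Cd200r2, Ccrl2, Il2rb, Klrd1, Itih5, Tyrobp, Klre1, Ptpn4 and Fcer1g, among them receptors of natural killer type (Klrd1, Klre1) and their signalling adaptors (Tyrobp, Fcer1g). Cluster 1 was thus rich in Gzma and Cd8a, with Cd8b1 in 2 barcodes.

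Cluster 2, 222 barcodes, resembled cluster 1 in Cd8a (96.4%), Fcer1g (99.1%) and Cd8b1 (0.901%), but had little Gzma (6.31%) and Gzmb (2.70%). Xcl1, a chemokine that attracts cross-presenting dendritic cells, had a UMI in 92.8% of cluster 2 and 1.65% of cluster 1. The other leading genes of cluster 2 were P4ha2, Gm19590, Kcnk1, Klrk1, Spry2, Kit, Cyp2j6, Tcf7 and Slc16a11. Kit, a receptor tyrosine kinase, was found in 52.7% and Tcf7, a transcription factor of early and memory T cells, in 56.3%. Over all 1369 set 2 members, 815 held Gzma without Xcl1, 251 Xcl1 without Gzma, 61 both and 242 neither.

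Clusters 3 and 4 were also rich in granzymes, with Gzma in 96.8% and 98.3% and Gzmb in 92.0% and 93.8%, yet Fcer1g was at 0 of 187 and 2.81%. Cluster 3, 187 barcodes, held Cd8b1 in 64.2% and was led by Cd8b1, Scin, Ifng, Cd226, Atp8a2, Themis, Cd6, Thy1, Znrf1 and Gm5547. Cluster 4, 178 barcodes, held Cd4 in 40.4%, 66 of its 72 Cd4 barcodes together with Cd8a or Cd8b1, and Cd5, a modulator of T-cell receptor signals, in 53.4%. It was led by Ccl4, Cd4, Cd5, Ifi27l2a, Cd6, Itln1, Errfi1, Scin, Ier5l and Gzmb, of which Itln1 is an epithelial lectin. Itln1 had a UMI in 63.5% of cluster 4. This cluster also held 3 of the members over 5% epithelial UMI, the highest at 43.9%, and their part in the Itln1 mean was not tested.

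Cluster 5, 174 barcodes, held fewer CD8 genes (Cd8a 28.2%) and was led by Cd28 and Icos, costimulatory receptors, with Il18r1, Tmem176b, Tmem176a, Maf, Tmem154, Ms4a4b, Il7r and Itgal. Cd4 was found in 33.3% of it, and 44.8% held no Cd8a, Cd8b1 or Cd4. Foxp3, the master regulator of regulatory T cells, was found in 7 barcodes of cluster 5 and 0 of the other T-cell-like clusters. Il22 was found in 7 barcodes and Il17a in 6 of cluster 5, and Ncr1, an activating receptor of natural killer and innate lymphoid cells, in 12. Of the 15 set 2 members with Ncr1, 2 also held a CD3 gene. At a finer clustering (Leiden resolution 2), cluster 5 parted into groups of 108, 56 and 10 barcodes. The group of 56 was led by Ncr1, Tnfrsf25 and Klrb1b. It had no T-cell gene among its 10 highest folds over annotated cells.

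Cluster 6, 120 barcodes, had Cd160 in 88.3%, Cd8a in 84.2%, Cd8b1 in 39.2% and Xcl1 in 40.0%, with Gzma in 17.5%. It was led by Tcf7, Cd8b1, Socs3, Tespa1, Thy1, Jun, Xcl1, Ms4a4b, Exosc1 and Rab20, without strong leading folds, the highest being 3.15. Cluster 6 also took in 3 barcodes with 10 or more UMI of the mast-cell proteases Mcpt1 and Mcpt2, which held 1415 Mcpt1 UMI and no CD3 gene. These 3 barcodes were picked after their values were seen.

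**Figure D3:**
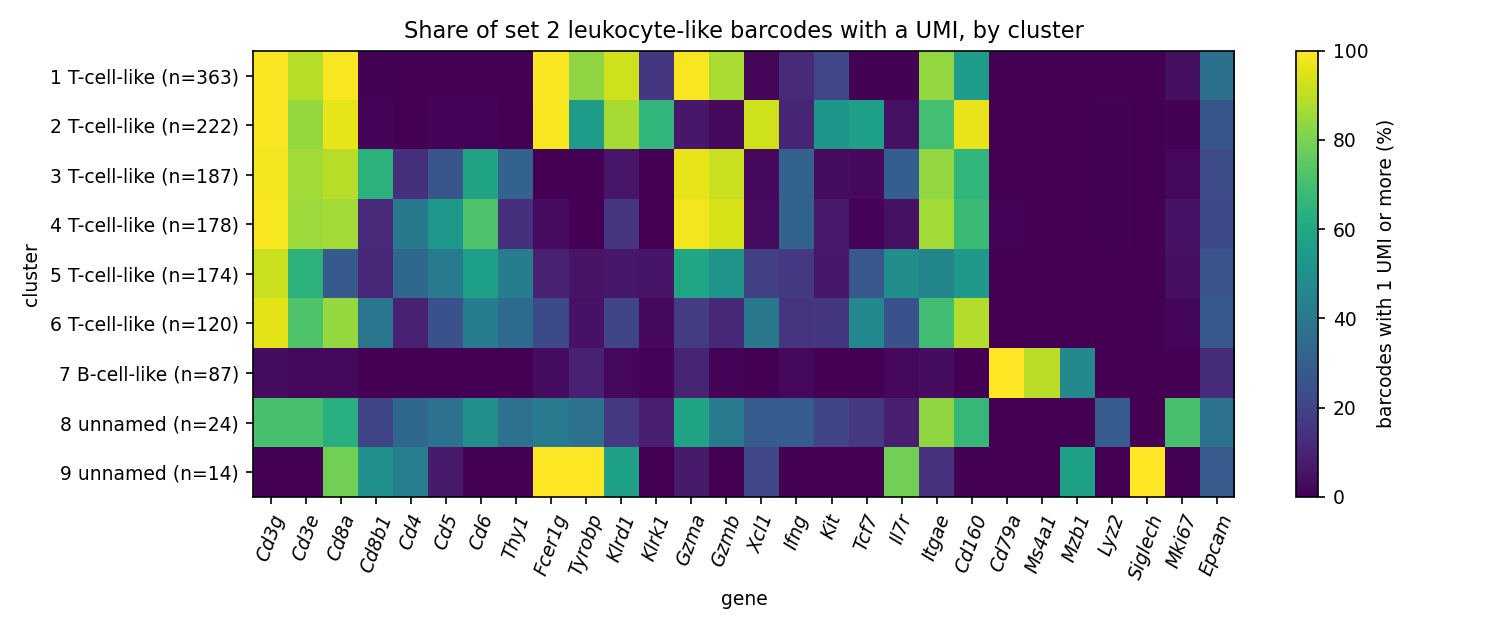
Share of set 2 leukocyte-like barcodes with at least 1 UMI of each gene, by cluster (rows, with the number of barcodes) and gene (columns), on a colour scale from 0 to 100%. Fcer1g and Tyrobp are high in clusters 1 and 2, Gzma and Gzmb in clusters 1, 3 and 4, Xcl1 in cluster 2, and Cd79a and Ms4a1 in cluster 7.

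Genes found with each coreceptor were read without the clusters, in set 2 members with a CD3 gene. A barcode with no UMI of Cd8b1 may still express it, since members held a median of 2851 UMI. Cd8a without Cd8b1 or Cd4 was seen in 733 barcodes, Cd8a with Cd8b1 and no Cd4 in 207, Cd4 with a CD8 gene in 118, Cd4 alone in 53, Cd8b1 alone in 7 and none of these in 125. The group with Cd8b1 alone is not described further. Median UMI of the other 5 groups ran from 2389 to 2982.

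Fcer1g had a UMI in 80.5% (95% interval 77.4 to 83.3) of barcodes with Cd8a alone, 3.38% with Cd8a and Cd8b1, 0.847% with Cd4 and a CD8 gene and 1.89% with Cd4 alone. Tyrobp was found in 57.6% beside Cd8a alone and 1.45% beside Cd8a and Cd8b1. Klrd1 was found in 75.2% and 9.18% of these groups, and Ikzf2, the Helios transcription factor, in 80.2% and 27.1%.

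The shares of barcodes with Cd6, Lat and Thy1 were lower beside Cd8a alone than beside Cd8a with Cd8b1. Cd6, a T-cell surface receptor, was found in 13.9% of barcodes with Cd8a alone, 50.2% with Cd8a and Cd8b1 and 81.4% with Cd4 and a CD8 gene. Cd5 did not follow them, with 10.8% and 10.1% beside Cd8a alone and beside Cd8a with Cd8b1, and 67.8% beside Cd4 with a CD8 gene. Lat, an adaptor of the T-cell receptor, was found in 33.2%, 72.5% and 78.8% of these 3 groups, and Thy1 in 4.64%, 35.7% and 24.6%. Gzma was common in all 5 groups, from 59.2% with no coreceptor gene to 87.3% with Cd4 and a CD8 gene, so granzyme RNA was not tied to 1 coreceptor pattern. All barcodes come from 1 library, and no test was made between the groups.

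**Figure D4:**
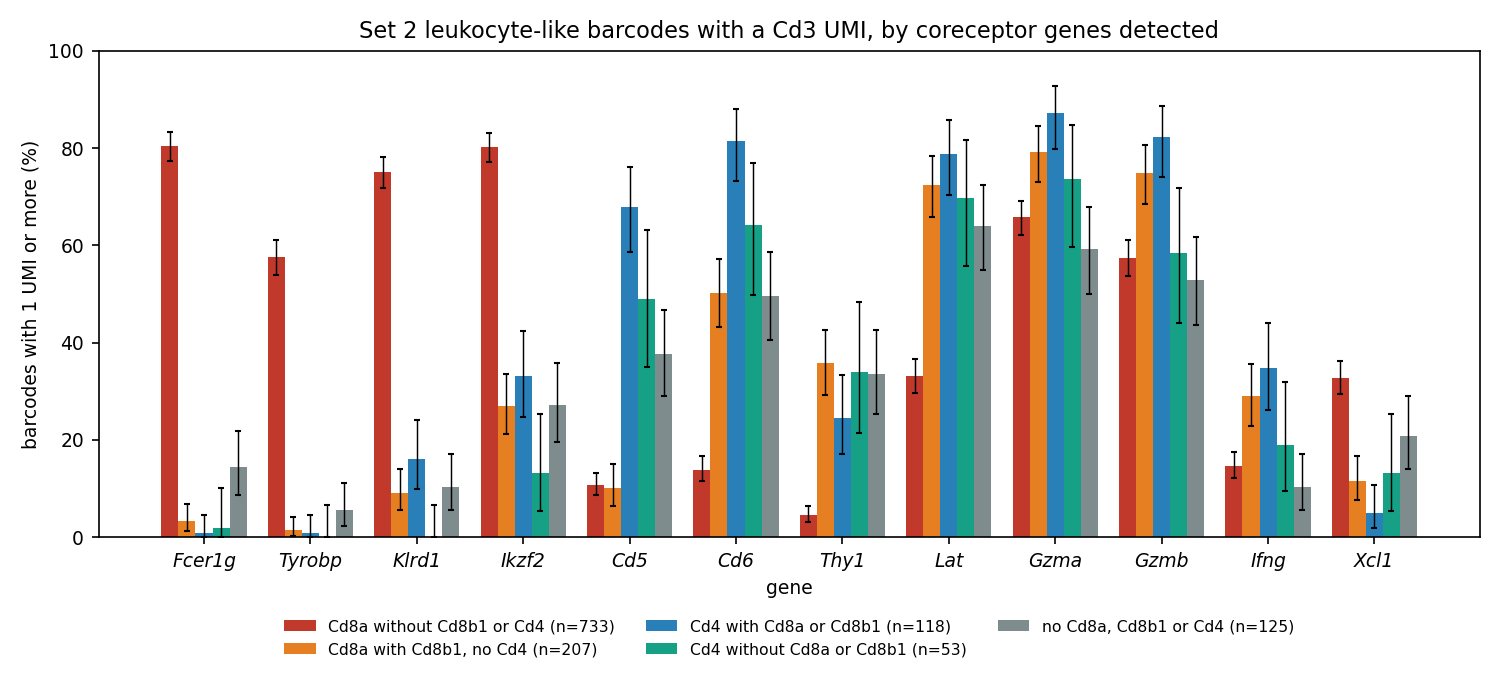
Share of set 2 leukocyte-like barcodes with a CD3 gene that hold each of 12 genes, by coreceptor genes detected (bars, with the number of barcodes in the legend) with exact 95% binomial intervals. Fcer1g, Tyrobp, Klrd1 and Ikzf2 are highest beside Cd8a alone, and Cd6, Lat and Thy1 are lowest there.

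Among signals between cells, 6 of the 8 cytokine and chemokine genes that passed were higher in each set, against 5.26% of all genes tested. A gene could pass through the members alone, so this count is a description. Ccl5, a chemokine of cytotoxic lymphocytes, stood at 27902 and 76.4 CPM in set 2 members and annotated cells. Ifng, the gene of interferon gamma, stood at 121 and 0.438 CPM, with a UMI in 31.6% of cluster 3 and 10.4% of cluster 2. Il17a UMI lay in few barcodes, with 32 of the 69 in cluster 5 in 1 barcode. Areg, an epidermal growth factor family ligand, was not among them, at 17.9 and 14.3 CPM in set 2 members and annotated cells.

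Among inhibitory receptors, Lag3 stood at 232 and 0.750 CPM in set 2 members and annotated cells, and Pdcd1, the gene of PD-1, at 6.12 CPM in members and 0 UMI in annotated cells, where the 3-count floor over the group gave a level at least 97.9-fold higher in members of set 2. The 7 GIMAP genes that passed, lymphocyte GTPases, were all higher in each set, against 5.26% of all genes tested. This too is a description. The GIMAP list had summed levels of 1111 and 3252 CPM in set 1 and set 2 members against 39.0 and 54.1 CPM in annotated cells. Of 10 proliferation genes, 0 were higher in each set, and Mki67 was found in 55 of 1369 set 2 members (4.02%), 17 of them in cluster 8.

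B-cell-like cluster 7 was led by Cd79a, the signal chain of the B-cell receptor, found in 100% of its barcodes at a mean of 2942 CPM against 2.09 CPM in the other members. After Cd79a came Ebf1, a B-lineage transcription factor, Ms4a1, the gene of CD20, then Fcmr, Vpreb3, Gm43603, Siglecg, Mef2c, Scd1 and Bank1. Cd74, the invariant chain of MHC class II, had a UMI in 100% of set 2 barcodes of cluster 7 and 13.5% of cluster 1. Of 7 antigen-presentation genes, 5 were at least 4 times as high in set 1 members as in annotated cells, and 0 in set 2. Their summed level was 17745 and 2376 CPM in set 1 and set 2 members, against 2070 and 1764 CPM in annotated cells. The median log2 ratio of these 7 was 3.00 in set 1 and 0.27 in set 2.

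Jchain, although leading the ranking, came from few barcodes. In set 1, 8 members held 3404 Jchain UMI and 1901 of them lay in 1 barcode. In set 2, 7 members held 1080 UMI and 719 lay in 1. The barcodes with 100 or more Jchain UMI number 2 in set 1 and 3 in set 2, all placed in cluster 7 and all without a CD3 gene. Antibody constant genes are not among the genes used here.

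Cluster 8, 34 barcodes with a median of 12536 UMI, was led by Lyz2, Il22ra2, Il1b, Cxcl16, Mcemp1, 2810417H13Rik, Rrm2, Ifitm6, Cfp and Hist1h1b. Its barcodes fell into kinds that the clustering did not part. Of the 24 in set 2, 17 held a CD3 gene, and the other 7 all held Lyz2, the lysozyme of macrophages and neutrophils, with 2 to 839 UMI each. Of the 10 in set 1, 6 held a CD3 gene, 3 held Cd79a and 1 held 365 UMI of Lyz2. Mki67, the standard proliferation gene, was found in 17 of the 24 set 2 barcodes. Depth and class cannot be told apart in cluster 8, and doublets were not tested.

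Cluster 9, 17 barcodes, was led by Siglech, a receptor known from plasmacytoid dendritic cells, found in 17 of 17. Cox6a2, Ly6c2, Smim5, Mpeg1, Clec12a, Klk1, Sh3bgr, Cd300c and Cd209d came next. In set 2 all 14 of these barcodes held Fcer1g, Tyrobp and Ccr9, 11 held Cd8a, and 0 held a CD3 gene. Of the 3 set 1 barcodes of cluster 9, 1 held a single Cd3e UMI, and they held 16, 22 and 18 Cd8b1 UMI. A UMI of Cd8a or Cd8b1 was thus also found in barcodes outside the T-cell-like clusters. With 2 dendritic-cell genes in at least 50% of barcodes, the cluster fell short of the 3 needed for a name.

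Set 1 contributed 18 members, so shares there have wide intervals. Of the 8 with a CD3 gene, 6 lay in cluster 8, and 1 each in clusters 7 and 9 held a single Cd3e UMI. The 6 members of cluster 8 with CD3 genes held 7 to 18 Cd3e UMI each, and 3 of them held 111 to 234 Gzma UMI. The lowest total of set 1 lies above that of most set 2 members, so a difference in the makeup of the sets cannot be told apart from the depth at which barcodes were kept.

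Genes of further lists varied. Of the neutrophil genes 0 reached the minimum, and S100a8 and S100a9 were at 0 UMI in members of both sets. Of 5 innate lymphoid genes 1 was higher in each set, Rora, a nuclear receptor, at 107 and 0.667 CPM in set 2 members and annotated cells. Of 8 cytokine receptors 5 were higher in each set, among them Il2rb, the shared interleukin 2 and 15 receptor chain, at 144 and 0.625 CPM in set 2. In set 2 alone, 5 of 7 innate lymphoid genes and 11 of 13 cytokine receptors were higher, against 14.7% of all genes tested. Set 1 members held 15 UMI of the innate lymphoid list, so few of its genes could be called higher in each set. Of 4 macrophage genes 3 were higher in each set, with Lyz2 at 1565 and 312 CPM in set 1 and set 2 members against 13.9 and 7.30 CPM in annotated cells. These Lyz2 levels came from few members. All 365 UMI of set 1 lay in 1 barcode, and in set 2 10 barcodes held 1323 UMI, 839 of them in 1. Vim, an intermediate filament gene shared by leukocytes and stroma, stood at 416 and 464 CPM in members and 4.09 and 5.11 CPM in annotated cells. Of 10 tuft genes 1 was higher, Fyb, an adaptor also used by T cells, at 467 and 12.1 CPM in set 2.

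Annotated cells carried some of the same RNA at low levels. Ptprc had a UMI in 40 of 1144 (3.50%) and 55 of 1470 (3.74%) annotated cells of set 1 and set 2. The selection used Ptprc, and annotated cells held 50 and 133 Ptprc UMI in set 1 and set 2, so the following ratios are descriptions. In set 2 the UMI of Gzma per UMI of Ptprc was 11.4 in members and 11.9 in annotated cells, of Cd52 1.87 and 1.95, of Rgs1 1.89 and 1.71, of Ccl5 26.8 and 27.6, of Cd3g 3.65 and 2.85, and of Jchain 0.244 and 0.0602, the last from 8 UMI in annotated cells. For Cd79a in set 2 it was 0.147 and 0.120. In set 1, Gzma per Ptprc was 14.6 in members and 12.2 in annotated cells, Cd3g 2.59 and 2.36, and Rgs1 1.49 and 1.92. Further apart in set 1 were Jchain per Ptprc at 87.3 and 4.56, Cd79a at 3.85 and 1.34, Cd52 at 16.4 and 3.32 and Ccl5 at 10.7 and 48.2. The source of leukocyte UMI in annotated cells was not tested.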

How the data were processed

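The 2 10x libraries were deposited as matrices of raw UMI counts per gene and barcode, whole numbers per the file headers, and the authors' cell annotation as a table. The genome build is mm9, per the submitters' processing notes. The set 2 matrix header names a software version and that of set 1 does not; the aligner and the authors' barcode filter: not given in the sources used here. Barcodes were matched to the annotation by set and sequence. Members, gene lists and cluster markers were chosen with earlier results of these data known.

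Counts were summed over barcodes per set and given as CPM with exact Poisson intervals at 95%. Shares carry exact Clopper-Pearson intervals. A log2 ratio used members over annotated cells, a gene needed 20 UMI over both in each set, and 4 times counted as higher or lower. A side under 3 counts was raised to 3 only where it was the lower one, and a higher side of at most 3 counts gave no ratio. The design set this floor without naming a side, and its use on the lower side was chosen after seeing the data. No p-value was computed, since cells of a library are not replicates. The ratio rule was tested on simulated data. Labels do not say whether the sets are separate animals.

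Members were clustered with scanpy 1.11.5 and igraph 0.11.9: counts scaled to 10000 UMI, log values, 2000 variable genes, 20 principal components, 15 neighbours, Leiden resolution 1, no integration. A cluster took a name with 3 or more markers of a class in at least 50% of barcodes, more than of any other class, and for T cells with a T-cell gene among its 10 highest folds over annotated cells. Named genes are those of the lists, the 15 with the largest and the 15 with the smallest ratio in the less extreme set, mitochondrial genes left out, and 10 per cluster by fold over other members among genes in at least 20% of its barcodes. The alternatives were other limits for barcodes, genes, fold, depth and clustering, and each set left out in turn. Some genes that this rule names are not reported here.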

Additional observations from a re-analysis of the deposited data

Results flagged for a closer look

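Barcodes beyond the mitochondrial limit were outside every comparison, yet some carried leukocyte RNA. In set 2, 201 of 4502 unannotated barcodes with 15% or more mitochondrial UMI held a Ptprc UMI, a share of 4.46% (3.88 to 5.11). The flag needed only more than 3 counts, or 0.0666%, which is no background level. Annotated cells of set 2 held Ptprc in a near share, 3.74% (2.83 to 4.84), at a median of 24850.5 UMI against 1268.5. Of these 201 barcodes, 131 (65.2%) also held a UMI of Cd3d, Cd3e or Cd3g, at a median of 2791 UMI. In set 1, 0 of 36 such barcodes held Ptprc, which allows up to 9.74% by the exact interval. Whether they are damaged leukocytes or carry free RNA was not tested.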

How the results depend on the processing

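The summed epithelial level was lower in members under all 7 alternatives run for it, with log2 ratios from -4.03 to -3.14 around -3.59. No paired analysis was possible because the set numbers name 2 libraries of 1 group and no result comes from a test; each ratio of members over annotated cells was already taken within a library. The number of members was 1369 without set 1 and 18 without set 2. The share with a CD3 gene, 90.2% over both sets, was 93.6% with at least 2 Ptprc UMI, 83.7% at 500 UMI per barcode, 90.8% without set 1 and 44.4% without set 2. Its excess over annotated cells, 79.2 percentage points, was 82.6 with at least 2 Ptprc UMI, 52.4 over unannotated barcodes with no Ptprc UMI, 82.2 without set 1 and 30.3 without set 2. The 52.4 pools both sets. In set 1 alone, 8 of 18 members (44.4%) and 6 of 11 barcodes with no Ptprc UMI (54.5%) held a CD3 gene. The share in T-cell-like clusters, 89.7%, was 95.4% with at least 2 Ptprc UMI and 85.6% at Leiden resolution 2. At that resolution the group of 56 barcodes from cluster 5, led by Ncr1, did not take the T-cell name. The share was also 85.6% without the 4 members over 5% epithelial UMI, an alternative chosen after seeing the data. Set 1 alone was not clustered, having 18 barcodes. The 604 higher genes became 248 with at least 100 UMI per set, 1315 at 2-fold, 1929 without set 1 and 964 without set 2. The 313 lower genes became 184 with at least 2 Ptprc UMI, 674 with 0.5 counts added to both sides, 789 at 2-fold, 1696 without set 1 and 342 without set 2. Against unannotated barcodes with no Ptprc UMI, 2 of 2036 genes were higher and 24 lower. Without members over 10000 UMI, also chosen after seeing the data, 245 were higher and 100 lower than in annotated cells. That alternative left out 13 of the 18 set 1 members and 16 of the 1369 set 2 members. A single set calls more genes since it needs no second one; the cause of the other changes was not tested. T-cell receptor constant genes, named in a planned per-barcode count, are not among the genes used here, so that count rests on CD3 genes.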

Other observations

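Among annotated cells, Ptprc was found most often in tuft cells, the chemosensory type of the epithelium, with 9 of 24 (37.5%) in set 1 and 3 of 23 (13.0%) in set 2. Enterocytes held it in 10 of 406 (2.46%) and 18 of 488 (3.69%). The summed level of Ptprc in tuft cells was 32.9 CPM (18.0 to 55.2) in set 1 and 8.60 CPM (2.79 to 20.1) in set 2, against 1.72 and 1.89 CPM in enterocytes. Enteroendocrine cells of set 2 stood at 14.8 CPM, above its tuft cells, with Ptprc in 4 of 45. Cd3g was found in 2 of 24 and 2 of 23 tuft cells of set 1 and set 2, at 4.70 and 27.5 CPM. Ccl5 in set 2 tuft cells stood at 291 CPM, from 169 UMI in 4 cells.

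Unannotated barcodes within the limits and with no Ptprc UMI held a median of 1357 UMI in set 2, and 138 of 370 held a CD3 gene (37.3%). In set 1, 6 of 11 such barcodes did. The 39 epithelial genes took a median of 3.03% of the UMI of such barcodes in set 2, against 5.35% in annotated cells of set 2. Of the immediate-early genes, Junb stood at 2172 CPM in set 2 members and 97.6 CPM in annotated cells, and at 382 and 66.8 CPM in set 1. Jun stood at 165 and 185 CPM in set 2 members and annotated cells and at 309 and 85.9 CPM in set 1.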
